A study of Mus musculus with 7 samples.

Results

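The collagen genes are the 44 rows of the count matrix whose symbol reads Col, a number, a and a number, out of 27998 genes in all. Mammary glands came from female mice, nulliparous and in diestrus, whose background mixed the strains FVB, 129 and C57BL/6J, with no transgene, deletion or treatment. The 3 young mice (Young A, B and C) were 3 to 4 months old, and the 4 aged mice (Aged A, B, C and D) were 13 to 14 months old. The abdominal #4 glands, freed of lymph nodes, were digested with collagenase and hyaluronidase, and unsorted cells were captured on the 10x Chromium with 3′ v2 chemistry, so that each counted molecule carries a unique molecular identifier (UMI). The matrix held 13684 cells of 13 deposited cell types and 83649527 UMIs, of which 121782 (0.146%) belonged to collagen genes. Levels are given as CPM (a gene's UMIs scaled to 1000000 UMIs summed over the cells of a type in a mouse), and the mouse was the replicate. Because 3′ counting yields one tag per molecule, levels of different genes were not divided by gene length.

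Collagens are trimers of chains wound into a triple helix. Fibril-forming types I, III and V give interstitial tissue its tensile strength, type IV forms the sheet-like network of basement membranes under epithelium and around vessels, type VI forms beaded filaments near cell surfaces, and the fibril-associated collagens with interrupted helices (FACITs) decorate fibril surfaces. Types XIII, XVII, XXIII and XXV span the cell membrane, type VII anchors basement membrane to stroma, and types XV and XVIII (multiplexins) are proteoglycans of the basement membrane zone. In the mammary gland, fibroblasts are the main source of interstitial collagen, and myoepithelial cells lie directly on the basement membrane.

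Cell barcodes were written in one format in every young mouse and in another in every aged mouse. No sample label names a batch. If the libraries of the ages were also handled apart, that effect cannot be told apart from the effect of age here. The mice held 1264 to 2865 cells and 6652599 to 16999625 UMIs each. Fibroblasts numbered 184 to 1034 per young mouse but 121, 41, 15 and 17 in Aged A, B, C and D, so that fibroblast levels of Aged C and D rest on few cells. In all, 44 cell barcodes were shared between mice. Against their defining markers, 2 deposited types stood out. In HS-AV cells the summed level of 7 AV markers was 2990 to 5944 CPM in young but 304 to 550 CPM in aged mice, where HS cells had 319 to 1082 CPM. In pericytes, Rgs5, Des and Notch3 had their highest levels, but the summed level of 7 endothelial markers was 2493 to 2897 CPM in young and 977 to 1895 CPM in aged mice, against 2994 to 3614 and 2272 to 2536 CPM in vascular endothelial cells. None of those 7 markers was at 0 in pericytes, and the part of endothelial RNA in the pericyte collagen values was not tested.

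Of the 44 genes, 2 (Col10a1 and Col22a1) had no UMI in any cell, 12 had 1 to 77 UMIs in total, 10 had at least 100 UMIs but stayed under a mean of 50 CPM in every type, and 20 reached a mean of 50 CPM in at least 1 cell type. Of these 20, 12 had their highest mean in fibroblasts, 5 in myoepithelial cells and 3 in pericytes. The cell types had been clustered on all genes, and Col1a1, Col1a2 and Col3a1 had served to name the fibroblasts, so differences between types are a description with no test.

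**Figure D1:**
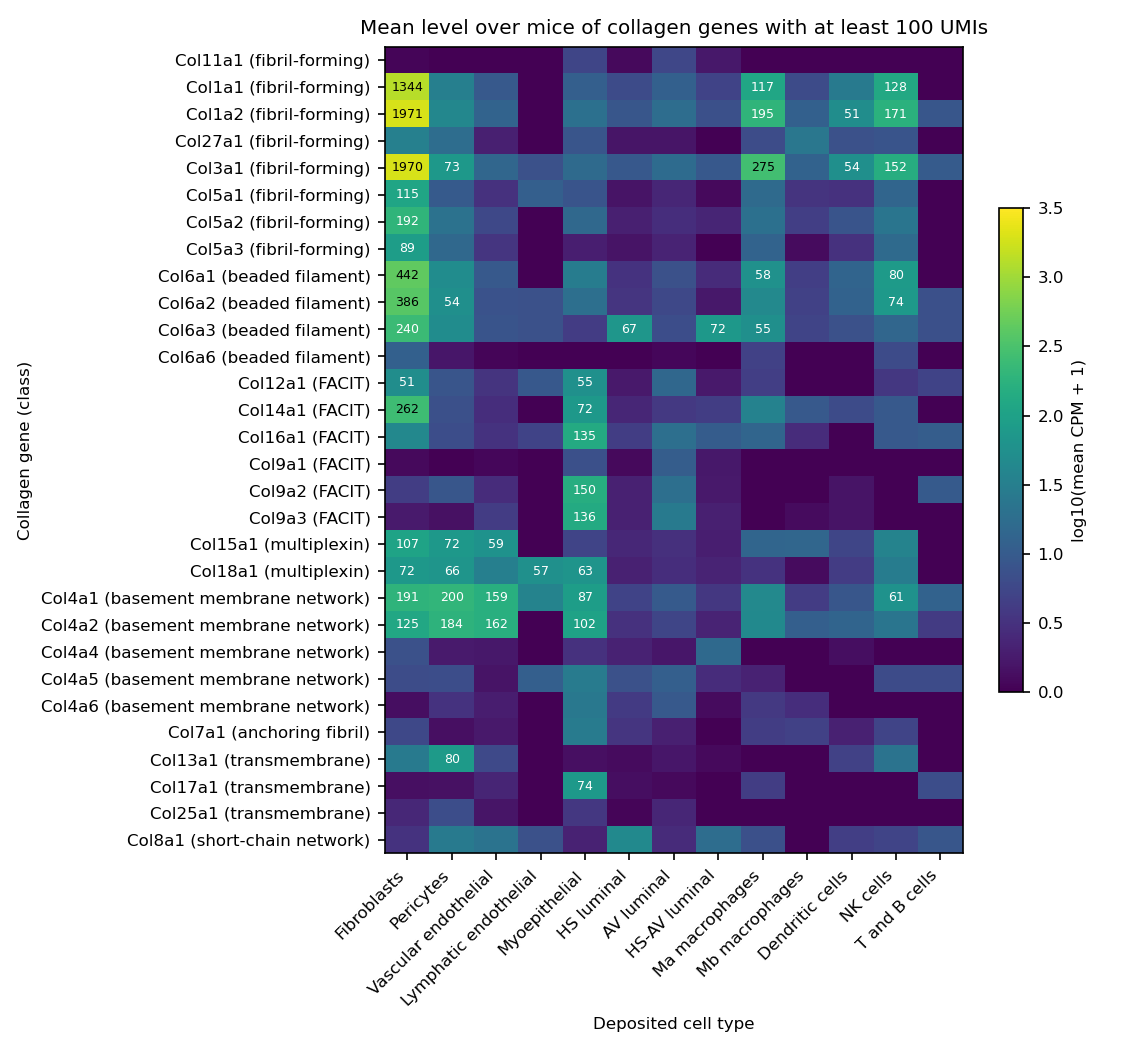
Mean level over mice (color, log10 of CPM + 1) of the collagen genes with at least 100 UMIs (rows, with their class) in the 13 deposited cell types (columns), with the CPM printed where it is at least 50. Types I, III, V and VI peak in fibroblasts, Col9a2, Col9a3, Col16a1 and Col17a1 in myoepithelial cells, and Col4a1 and Col4a2 spread over pericytes, fibroblasts, vascular endothelial and myoepithelial cells.

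Fibroblasts held the interstitial chains. The type I chains Col1a2 and Col1a1 reached 1971 ± 466 and 1344 ± 314 CPM (SD, n = 7 mice), and the type III chain Col3a1 reached 1970 ± 1071 CPM. Each was highest in fibroblasts in 7 of 7 mice. The next highest types were Ma macrophages for Col1a2 and Col3a1, at 195 and 275 CPM, and NK cells for Col1a1, at 128 CPM. With a minimum of 3 cells, the Ma means cover young mice only, and the NK mean leaves out Aged C and D. These small populations also carried fibroblast markers: the summed level of 11 non-collagen fibroblast markers such as Dcn and Lum was 1006 to 1784 CPM in Ma macrophages of young mice and up to 4858 CPM in NK cells, and their part in those collagen values was not tested. The type V chains, which set fibril diameter, stood at 115 ± 56.3 (Col5a1), 192 ± 111 (Col5a2) and 89.0 ± 66.5 CPM (Col5a3) in fibroblasts. The type VI chains Col6a1, Col6a2 and Col6a3 stood at 442 ± 137, 386 ± 177 and 240 ± 119 CPM, and the FACIT Col14a1, which binds the surface of fibrils, at 262 ± 129 CPM. Within fibroblasts of young mice, fibril-forming chains made up 76.1% ± 0.590 and type VI 12.7% ± 0.770 of all collagen UMIs.

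Col14a1 and Col15a1 were unevenly spread over fibroblasts. A Col14a1 UMI was present in 56.3% to 66.7% of the fibroblasts of young mice and a Col15a1 UMI in 16.8% to 39.1%, while both were present in 3.804% to 14.3%. In Aged B the order was turned, with Col15a1 in 43.9% and Col14a1 in 9.76% of 41 cells. The other 3 aged mice had Col14a1 in 38.0% to 60.0% and Col15a1 in 22.3% to 26.7% of their fibroblasts. The Col14a1 level of Aged B, 34.5 CPM, lay below the 165 to 304 CPM of the other aged mice, and its Col15a1 level of 190 CPM was the highest of the 7 mice.

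Myoepithelial cells had a collagen set of their own. The type IX chains Col9a2 and Col9a3, known mainly from cartilage, stood at 150 ± 33.1 and 136 ± 30.6 CPM, and the FACIT Col16a1 at 135 ± 50.01 CPM. Each was highest in myoepithelial cells in 7 of 7 mice, with AV luminal cells second for the type IX chains at 18.2 and 26.9 CPM. Col17a1, the transmembrane collagen of hemidesmosomes, reached 74.4 ± 40.4 CPM and was also highest there in 7 of 7 mice. Col4a5 and Col4a6, the basement membrane chains encoded side by side on chromosome X with their starts 1343 bases apart, reached 27.4 ± 11.7 and 24.1 ± 15.4 CPM and were highest in myoepithelial cells in 6 of 7 and 7 of 7 mice. A Col9a2 UMI was found in 48.7% of myoepithelial cells, 11.97% of AV cells and 0.561% of HS cells, and in 25.9%, 3.78% and 0.0468% once every cell was thinned to 2000 UMIs.

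Hormone-sensing (HS) luminal cells contained 2 collagens that AV luminal cells had little of. Col6a3 stood at 28.4, 76.4 and 66.7 CPM in HS cells of Young A, B and C and at 51.2, 140, 50.3 and 59.1 CPM in Aged A to D. In AV cells of the same mice Col6a3 ranged from 0.955 to 13.3 CPM. Its partner chains Col6a1 and Col6a2 were at 2.25 ± 2.47 and 2.52 ± 3.08 CPM in HS cells, so the HS cells held the third chain of type VI largely without the other two. Col8a1, a short-chain collagen best known from vessel walls and the eye, was at 45.4 ± 27.4 CPM in HS cells, the highest mean of any type and the highest value in 5 of 7 mice. Together Col6a3 and Col8a1 supplied 33.5% and 25.1% of the collagen UMIs of HS cells. HS-AV cells had Col6a3 at 67.5, 54.5 and 49.03 CPM in Young A, B and C, and at 36.7, 183 and 43.4 CPM in Aged A, B and D, which had 6, 6 and 4 such cells.

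The type IV chains Col4a1 and Col4a2 are encoded head to head, and in the RefSeq annotation of GRCm38 their first exons overlap by 22 bases at chr8:11312805-11312826. The stretch between both starts is shown on the plus strand because both genes fell in the same 3 cell types in the comparisons below.
Overlap of Col4a1 and Col4a2: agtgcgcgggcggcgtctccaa
The levels of Col4a1 and Col4a2 were 200 ± 94.5 and 184 ± 76.7 CPM in pericytes, 159 ± 133 and 162 ± 142 CPM in vascular endothelial cells, and 87.4 ± 86.5 and 102 ± 79.3 CPM in myoepithelial cells, in each case closer to each other than the SD over mice. In fibroblasts they were 191 ± 61.6 and 125 ± 63.9 CPM, with Col4a1 above Col4a2 in 7 of 7 mice. The transmembrane collagen Col13a1 was highest in pericytes (80.0 ± 32.4 CPM, 6 of 7 mice). The multiplexins Col15a1 and Col18a1 ran across fibroblasts, pericytes and vascular endothelium, with Col18a1 also at 63.5 ± 10.0 CPM in myoepithelial cells.

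The cell types that supplied the collagen UMIs differed between the ages. Collagen genes took 0.275%, 0.139% and 0.371% of all UMIs in Young A, B and C, and 0.0537%, 0.0373%, 0.0248% and 0.0304% in Aged A to D. Fibroblasts supplied 82.0% ± 10.6 of the collagen UMIs in young mice (71.1% to 92.3%, n = 3) and 27.8% ± 15.996 in aged mice (16.7% to 51.5%, n = 4), with no overlap. Fibroblasts were 25.5% of the cells in the mean young mouse, and 7.34%, 1.49%, 1.09% and 1.10% of the cells in Aged A to D, so the number of captured fibroblasts moved with this share. In aged mice myoepithelial cells supplied 30.3% ± 12.5 and AV cells 25.3% ± 8.59 of the collagen UMIs, against 2.75% ± 1.87 and 1.41% ± 0.516 in young mice. Collagen UMIs as a share of a type's own UMIs were also lower in aged mice, at 0.613% ± 0.138 against 0.980% ± 0.200 in fibroblasts, 0.0847% ± 0.00754 against 0.145% ± 0.0134 in myoepithelial cells, 0.0701% ± 0.00697 against 0.147% ± 0.0120 in pericytes and 0.0281% ± 0.00532 against 0.0848% ± 0.0280 in vascular endothelial cells. In fibroblasts these shares overlapped between ages, and in the other 3 types they did not.

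**Figure D2:**
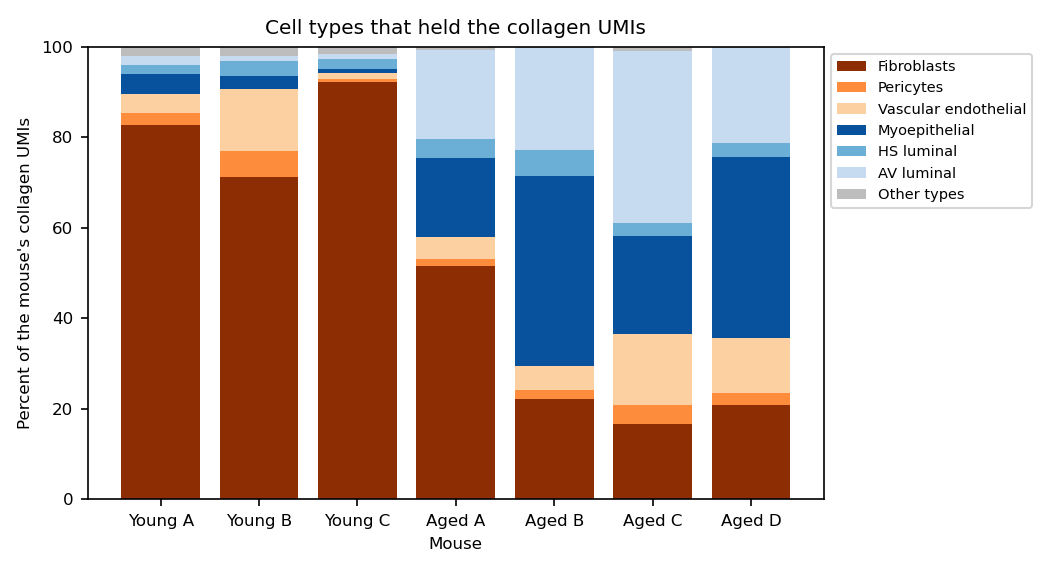
Percent of each mouse's collagen UMIs (y axis) by the cell type that held them (stacked colors), for the 3 young and 4 aged mice (x axis). Fibroblasts fill 71.1% to 92.3% of the bar in young mice and 16.7% to 51.5% in aged mice, where myoepithelial and AV cells take most of the rest.

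Summed over all cells of a mouse, 23 of the 31 collagen genes that passed the filter on low counts were called, with 18 lower and 5 higher in aged mice. Called genes changed at least 1.5-fold with an adjusted p (Benjamini-Hochberg) under 0.05 in edgeR's quasi-likelihood test, and 32.7% of all 12983 genes tested were called in this comparison. Col5a3 (log2 difference −5.15 ± 0.54 SE, adjusted p = 0.000785), Col3a1 (−4.67 ± 0.67, adjusted p = 0.0021) and Col5a2 (−4.04 ± 0.62, adjusted p = 0.00249) fell most. The 5 that rose were Col9a1 (2.92 ± 0.40), Col9a2 (2.36 ± 0.38), Col9a3 (2.33 ± 0.38), Col11a1 (1.58 ± 0.47) and Col4a6 (1.42 ± 0.26), which all had their highest mean in AV or myoepithelial cells. Col11a1 overlapped between the ages, with Aged D at 1.21 CPM against 1.05 to 1.39 CPM in young mice, and kept its call in 2 of 7 fits with a mouse left out. In such sums, fewer cells of a type and less RNA per cell cannot be told apart, so each type was compared on its own.

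In fibroblasts, 3 of 18 collagen genes tested were called, all lower in aged mice, while 3.17% of all 5513 genes tested were called. Col5a3, a minor chain of type V, stood at 137, 113 and 206 CPM in Young A, B and C and at 25.9, 63.3, 50.6 and 27.4 CPM in Aged A to D, a log2 difference of −1.92 ± 0.36 (SE, edgeR adjusted p = 0.00934). Col6a3 stood at 348, 320 and 413 CPM in young mice and 103, 161, 190 and 146 CPM in aged mice (−1.25 ± 0.24, edgeR adjusted p = 0.0118). Col3a1 stood at 3289, 2059 and 3559 CPM in young mice and 886, 1703, 1228 and 1070 CPM in aged mice (−1.20 ± 0.25, edgeR adjusted p = 0.0189). For all 3 genes every aged mouse lay below every young mouse.

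The type I chains did not pass the test. Col1a1 was at 1509, 1202 and 1870 CPM in young and 1029, 1444, 950 and 1408 CPM in aged fibroblasts (−0.24 ± 0.23, edgeR adjusted p = 0.613). Col1a2 was at 2419, 1970 and 2583 CPM in young and 1483, 2048, 1279 and 2011 CPM in aged fibroblasts (−0.35 ± 0.22, edgeR adjusted p = 0.422). For both chains the age groups overlapped. Accordingly, the UMI ratio of Col1a1 to Col1a2, the chains of one trimer, was 0.624, 0.610 and 0.724 in young fibroblasts and 0.694, 0.705, 0.743 and 0.700 in aged fibroblasts, whereas the ratio of Col3a1 to Col1a2 was 1.36, 1.05 and 1.38 in young and 0.598, 0.831, 0.960 and 0.532 in aged fibroblasts. The second ratio did not overlap between the ages, but the gap between Young B (1.05) and Aged C (0.960) was narrow. The Aged C ratio rested on 97 Col3a1 and 101 Col1a2 UMIs of 15 cells. This ratio uses the same Col3a1 values as the call above and is not separate evidence. Col5a2 (−1.20 ± 0.31) and Col5a1 (−1.01 ± 0.26), both at adjusted p = 0.0525, fell just short of the threshold, whereas Col6a1 (0.04 ± 0.28) and Col6a2 (−0.04 ± 0.36), which assemble with Col6a3, had log2 differences near 0. The median log2 difference was −0.33 over the 18 collagen genes tested and 0.00 over all genes tested.

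The fibroblast calls rested on few aged cells. Without the aged mice that had under 20 fibroblasts (Aged C and D), an alternative added after the data had been seen, 1 collagen gene, Col6a3, remained called, and without Aged A none did. Col3a1 also lost its call without Young A, Young C or Aged C, and Col6a3 without Young C. None of the 28 biosynthesis and crosslinking genes tested, nor of 4 collagen receptors tested, was called in fibroblasts. Sparc, a secreted collagen-binding protein, was at 1960 to 3732 CPM in young and 903 to 1829 CPM in aged fibroblasts without passing the test (−0.98 ± 0.26, edgeR adjusted p = 0.0621).

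**Figure D3:**
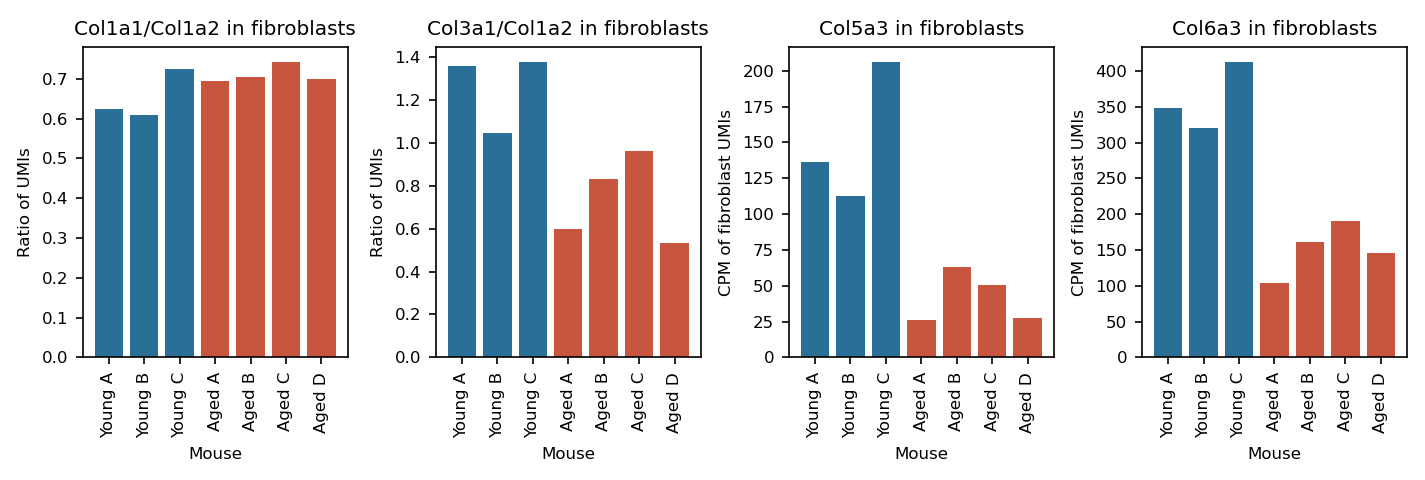
UMI ratios of Col1a1 and of Col3a1 to Col1a2 and levels of Col5a3 and Col6a3 (CPM) in the fibroblasts of each mouse (bars, blue for young and red for aged). The Col1a1 ratio lies between 0.610 and 0.743 in all 7 mice, while the Col3a1 ratio, Col5a3 and Col6a3 are lower in every aged mouse than in every young mouse.

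The 250 bases upstream of the RefSeq start of the 3 genes called in fibroblasts are shown to compare the promoters of genes that fell together (GRCm38.p6, each on the strand of its gene). These windows touch no annotated exon and lie at chr1:45311288-45311537 (plus strand) for Col3a1, chr9:20815068-20815317 (minus strand) for Col5a3 and chr1:90843972-90844221 (minus strand) for Col6a3. Capitals mark matches on either strand to the CCAAT box (CCAAT), to the core of the TATA box (TATAAA) and to the core of the GC box (GGGCGG), each searched in that form only and without overlap between motifs.
Col3a1: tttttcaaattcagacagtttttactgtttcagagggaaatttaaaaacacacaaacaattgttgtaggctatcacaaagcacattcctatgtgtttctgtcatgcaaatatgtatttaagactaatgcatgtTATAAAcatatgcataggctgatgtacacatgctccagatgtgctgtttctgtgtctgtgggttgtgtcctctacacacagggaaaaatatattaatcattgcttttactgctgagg
Col5a3: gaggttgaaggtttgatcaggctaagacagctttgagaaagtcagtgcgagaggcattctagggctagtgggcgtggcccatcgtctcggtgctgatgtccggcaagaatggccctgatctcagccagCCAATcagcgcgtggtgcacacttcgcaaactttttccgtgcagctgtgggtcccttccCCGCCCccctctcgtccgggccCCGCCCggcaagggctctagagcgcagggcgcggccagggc
Col6a3: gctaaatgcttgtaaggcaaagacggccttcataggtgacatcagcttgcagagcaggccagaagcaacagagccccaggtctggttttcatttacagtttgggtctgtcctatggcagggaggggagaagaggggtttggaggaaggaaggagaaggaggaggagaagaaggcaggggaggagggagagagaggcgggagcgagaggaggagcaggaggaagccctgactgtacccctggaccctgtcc
Col3a1 held a TATAAA 117 bases upstream of its start, Col5a3 held a CCAAT 122 bases upstream and GGGCGG on the opposite strand 63 and 41 bases upstream, and Col6a3 held no match in its window. Of all 32851 RefSeq windows of this length, 33.8% held a CCAAT, 12.4% a TATAAA and 32.7% a GGGCGG. The shares over the 38 windows of 35 collagen genes in the table were 34.2%, 13.2% and 57.9%. These matches are a description of the letters only.

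In myoepithelial cells, 12 of 19 collagen genes tested were called, with 11 lower and 1 higher in aged mice, while 27.6% of all 6740 genes tested were called. The basement membrane chain Col4a1 stood at 87.8, 167 and 243 CPM in Young A, B and C and at 26.6, 40.3, 27.7 and 18.8 CPM in Aged A to D (log2 difference −2.33 ± 0.32, edgeR adjusted p = 9.54e-05). Col4a2 stood at 135, 138 and 250 CPM in young mice and 30.3, 66.5, 64.6 and 26.8 CPM in aged mice (−1.77 ± 0.32, edgeR adjusted p = 0.000718). Neither gene overlapped between the ages, and both calls held with each mouse left out.

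Further genes called lower were Col7a1, Col17a1 and Col16a1. Col7a1, the anchoring fibril collagen, was at 76.5, 14.7 and 64.9 CPM in young and 10.1, 14.5, 7.69 and 5.13 CPM in aged myoepithelial cells (−2.47 ± 0.40, edgeR adjusted p = 0.000307). Col17a1 was at 70.8, 93.4 and 156 CPM in young and 37.7, 66.1, 50.8 and 46.2 CPM in aged cells (−0.89 ± 0.28, edgeR adjusted p = 0.0273). Col16a1 was at 201, 202 and 140 CPM in young and 131, 101, 84.6 and 85.0 CPM in aged cells (−0.75 ± 0.20, edgeR adjusted p = 0.0118). In all 3 the young mice lay above the aged mice, in Col7a1 by a narrow margin between Young B, with 3 UMIs, and Aged B. Col4a5 also fell, by 0.91 on the log2 scale, with Young C (26.0 CPM) inside the aged range of 15.97 to 27.7 CPM, as did Col14a1, by 1.44, with Young B (68.8 CPM) below Aged B (75.1 CPM). Without Young A the calls of Col16a1 and Col14a1 were lost, without Young C or Aged A that of Col17a1, and Col4a5 kept its call in 2 of 7 fits with a mouse left out.

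Col9a2 did not pass the test. It was at 124, 177 and 90.9 CPM in young and 161, 179, 175 and 141 CPM in aged cells (0.47 ± 0.21, edgeR adjusted p = 0.106), and Col9a3, Col4a6, Col12a1 and Col18a1, which did not pass either, had log2 differences between −0.40 and 0.30. The one gene that rose was Col6a1, at 22.7, 9.83 and 9.74 CPM in young and 46.9, 42.4, 33.8 and 37.1 CPM in aged cells (1.30 ± 0.32, edgeR adjusted p = 0.00601), with no overlap. The young values rest on 29 UMIs in all, and Young B and C had 40 and 54 myoepithelial cells. Col6a2 in the same cells gave −0.02 ± 0.34. The median log2 difference was −0.89 over the 19 collagen genes tested and 0.01 over all genes tested.

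**Figure D4:**
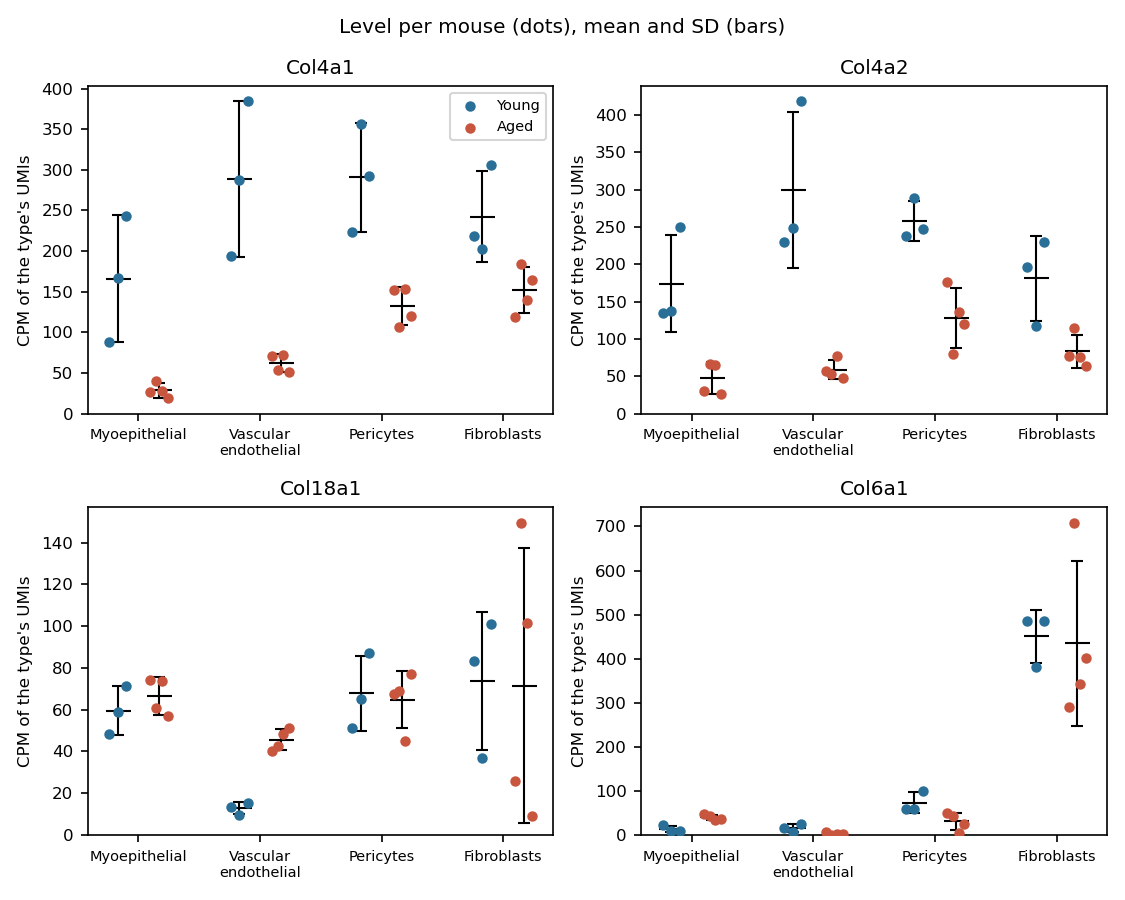
Level of Col4a1, Col4a2, Col18a1 and Col6a1 (CPM of the type's UMIs, y axes from 0) in each young (blue) and aged (red) mouse in 4 cell types, with mean and SD as bars. Col4a1 and Col4a2 are lower in every aged mouse in myoepithelial cells, vascular endothelial cells and pericytes, Col18a1 is higher in the aged mice in vascular endothelial cells, and Col6a1 is higher in the aged mice in myoepithelial cells.

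The interstitial chains were called in myoepithelial cells too, at low levels. Col3a1 was at 60.4, 9.83 and 32.5 CPM in young and 2.76, 1.03, 0 and 0 CPM in aged cells, Col1a1 was at 39.7, 9.83 and 16.2 CPM against 2.76, 0.689, 1.54 and 1.71 CPM, and Col1a2 was at 81.2, 4.92 and 19.5 CPM against 18.4, 5.17, 0 and 1.71 CPM. Their log2 differences were −5.22 ± 0.61, −4.05 ± 0.54 and −2.83 ± 0.65. Col1a2 gave −1.01 without Young A and was not called there, nor by DESeq2. Col5a2 (−1.72 ± 0.57) made up the 11 and was not called without Young C or with a block on the mouse letters. It passed the filter on low counts in 3 of 7 fits with a mouse left out. Col3a1 and Col1a1 also passed the filter in 3 of those fits each, and were called in all 3, while Col1a2 passed it in 6. The summed level of the 11 fibroblast markers was lower in aged cells as well. It was 496 to 974 CPM in young and 79.9 to 250 CPM in aged myoepithelial cells, with no marker at 0. It was mostly Dcn, at a mean of 291 CPM over mice, with each other marker at a mean of 36.5 CPM or less. The study names Dcn among the genes lower in aged myoepithelial cells. The part of fibroblast RNA in these calls was not tested. In Young A the ratio of Col1a1 to Col1a2 was 0.488 in myoepithelial cells, 0.641 in HS cells, 0.683 in AV cells, 0.618 in pericytes, 0.786 in vascular endothelial cells and 0.456 in dendritic cells, against 0.624 in fibroblasts.

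In AV cells, 8 of 22 collagen genes tested were called, all lower in aged mice, while 6.16% of all 11012 genes tested were called. They included Col1a2, Col3a1 and Col1a1, which had the highest mean levels of the collagen genes in young AV cells, at 38.1, 36.1 and 24.5 CPM. Col3a1 was at 60.0, 3.60 and 44.6 CPM in young and 0.658, 0.199, 0.136 and 0.483 CPM in aged AV cells (−6.49 ± 0.67, edgeR adjusted p = 0.00084). Col1a2 was at 60.0, 16.2 and 38.0 CPM against 2.14, 0.997, 0.545 and 0.322 CPM (−5.06 ± 0.49, edgeR adjusted p = 0.000657), and Col6a3 was at 13.3, 8.99 and 13.2 CPM against 0.987, 1.20, 0.955 and 1.29 CPM (−3.18 ± 0.31, edgeR adjusted p = 0.000662). Col1a1, Col5a1, Col5a3, Col14a1 and Col8a1 made up the rest, with log2 differences between −4.96 and −3.45, and none of the 8 overlapped between the ages. All 8 had been called on these same values, and the share of all called genes without overlap was not counted. With a mouse left out, Col5a1 and Col5a3 passed the filter on low counts in 1 of 7 fits and Col8a1 in 3, and in those fits Col5a3 and Col8a1 were not called. Col14a1 was not called without Young A. The fibroblast marker sum in AV cells fell alongside, from 122 to 367 CPM in young to 17.6 to 50.8 CPM in aged mice, with no marker at 0, and its part in these calls was not tested. A Col1a1 UMI was found in 7.56% of young and 0.522% of aged AV cells, against 96.9% and 87.1% of fibroblasts and 0 of 60 T and B cells, which allows a share of up to 5%, counting error only. Those 60 cells pooled both ages, with 4, 8 and 8 in Young A, B and C, so the limit does not hold for young mice alone. Other immune types held Col1a1 UMIs, with 15 in Mb macrophages, 32 in NK cells, 52 in dendritic cells and 75 in Ma macrophages. The median cell held 6632 UMIs among AV cells, 4414 among fibroblasts and 4392 among T and B cells.

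The type IX chains did not pass the test in AV cells. Col9a3, the collagen with the most UMIs in AV cells of all mice together, was at 23.7, 19.8 and 17.4 CPM in young and 46.4, 21.4, 31.9 and 27.7 CPM in aged cells (0.93 ± 0.30, edgeR adjusted p = 0.0916). Col9a1 was at 2.31, 8.99 and 6.61 CPM against 18.4, 14.8, 13.0 and 5.32 CPM (1.51 ± 0.51, edgeR adjusted p = 0.105). Myoepithelial markers summed to 55.0 to 164 CPM in young and 61.1 to 146 CPM in aged AV cells, against 11209 to 20812 CPM in myoepithelial cells. In HS cells 3 collagen genes passed the filter on low counts, none was called, and none had an unadjusted p under 0.05, while 6.26% of 8457 genes tested were called. Col6a3 gave 0.58 ± 0.43 and Col8a1 −0.44 ± 0.48 on the log2 scale there. Fibril-forming chains, which did not pass the filter, summed to 14.3 to 82.0 CPM in young and 1.95 to 5.69 CPM in aged HS cells, with no overlap. Without the filter 7 of 35 collagen genes were called, all lower, where 1215 of all 16147 genes were called. The fibroblast marker sum in HS cells was 84.4 to 175 CPM in young and 291 to 1843 CPM in aged mice, but it was nearly all Dcn, at a mean of 547 CPM, with each of the other 10 markers at a mean of 7.52 CPM or less.

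In vascular endothelial cells, 5 of 7 collagen genes tested were called, with 4 lower and 1 higher in aged mice, while 26.7% of all 7864 genes tested were called. Col4a1 stood at 193, 287 and 385 CPM in Young A, B and C and at 71.0, 53.8, 72.2 and 51.4 CPM in Aged A to D (−1.87 ± 0.23, edgeR adjusted p = 6.08e-05). Col4a2 stood at 230, 248 and 419 CPM against 57.2, 53.1, 77.5 and 47.6 CPM (−1.99 ± 0.23, edgeR adjusted p = 4.26e-05). Both chains were lower in every aged mouse than in every young mouse. In the same cells the sum of 7 pericyte markers was 121 to 414 CPM in young and 7.68 to 79.3 CPM in aged mice, and that of 3 adipocyte markers was 52.0 to 62.6 CPM in young mice and 0 in every aged mouse, and their part in these calls was not tested. Col18a1, whose C-terminal fragment is endostatin, went the other way, at 13.6, 9.80 and 15.1 CPM in young and 40.3, 42.6, 48.1 and 51.4 CPM in aged cells (2.23 ± 0.23, edgeR adjusted p = 1.59e-05), again with no overlap. Col15a1, the related multiplexin, did not pass (0.25 ± 0.30, edgeR adjusted p = 0.564). The interstitial chains Col1a1 and Col3a1 were called lower at 7.08 to 26.7 and 11.98 to 35.5 CPM in young against 0 to 0.891 and 0 to 7.42 CPM in aged cells, while the fibroblast marker sum was 80.0 to 390 CPM against 33.9 to 132 CPM. The part of those markers in the calls was not tested.

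In pericytes, 6 of 11 collagen genes tested were called, all lower in aged mice, while 11.8% of all 2601 genes tested were called. Col4a1 stood at 223, 357 and 293 CPM in young and 152, 106, 153 and 120 CPM in aged pericytes (−0.96 ± 0.25, edgeR adjusted p = 0.0214). Col4a2 stood at 238, 289 and 247 CPM against 177, 79.5, 136 and 120 CPM (−0.88 ± 0.25, edgeR adjusted p = 0.0376). Col4a1 kept its call in 4 and Col4a2 in 2 of 7 fits with a mouse left out. Endothelial markers also had lower sums in aged pericytes, as given above. Other lists went the opposite way. The sum of 7 myoepithelial markers, among them Acta2 and Myh11, was 1243 to 1376 CPM in young and 3438 to 7572 CPM in aged pericytes. That of 7 AV markers was 366 to 680 CPM against 582 to 2506 CPM. Their part in the pericyte calls, and in the tests between types below, was not tested. Col15a1 was at 96.4, 144 and 91.5 CPM against 16.8, 53.0, 50.9 and 51.5 CPM (−1.14 ± 0.34, edgeR adjusted p = 0.0437), a call that no fit with a mouse left out retained. Col3a1, Col1a2 and Col1a1 were at 54.9 to 161 CPM in young and 5.65 to 59.0 CPM in aged pericytes (−2.49 ± 0.44, −2.42 ± 0.44 and −2.40 ± 0.47), with the fibroblast marker sum at 442 to 1024 CPM against 170 to 420 CPM and 1 of 11 markers at 0. In aged pericytes these 3 chains rested on 13, 8 and 6 UMIs in all. None of the 6 genes called overlapped between the ages. They had been called on these same values, and the share of all called genes without overlap was not counted. Col13a1 (0.09 ± 0.41) and Col18a1 (0.15 ± 0.31) were among those that did not pass.

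**Figure D5:**
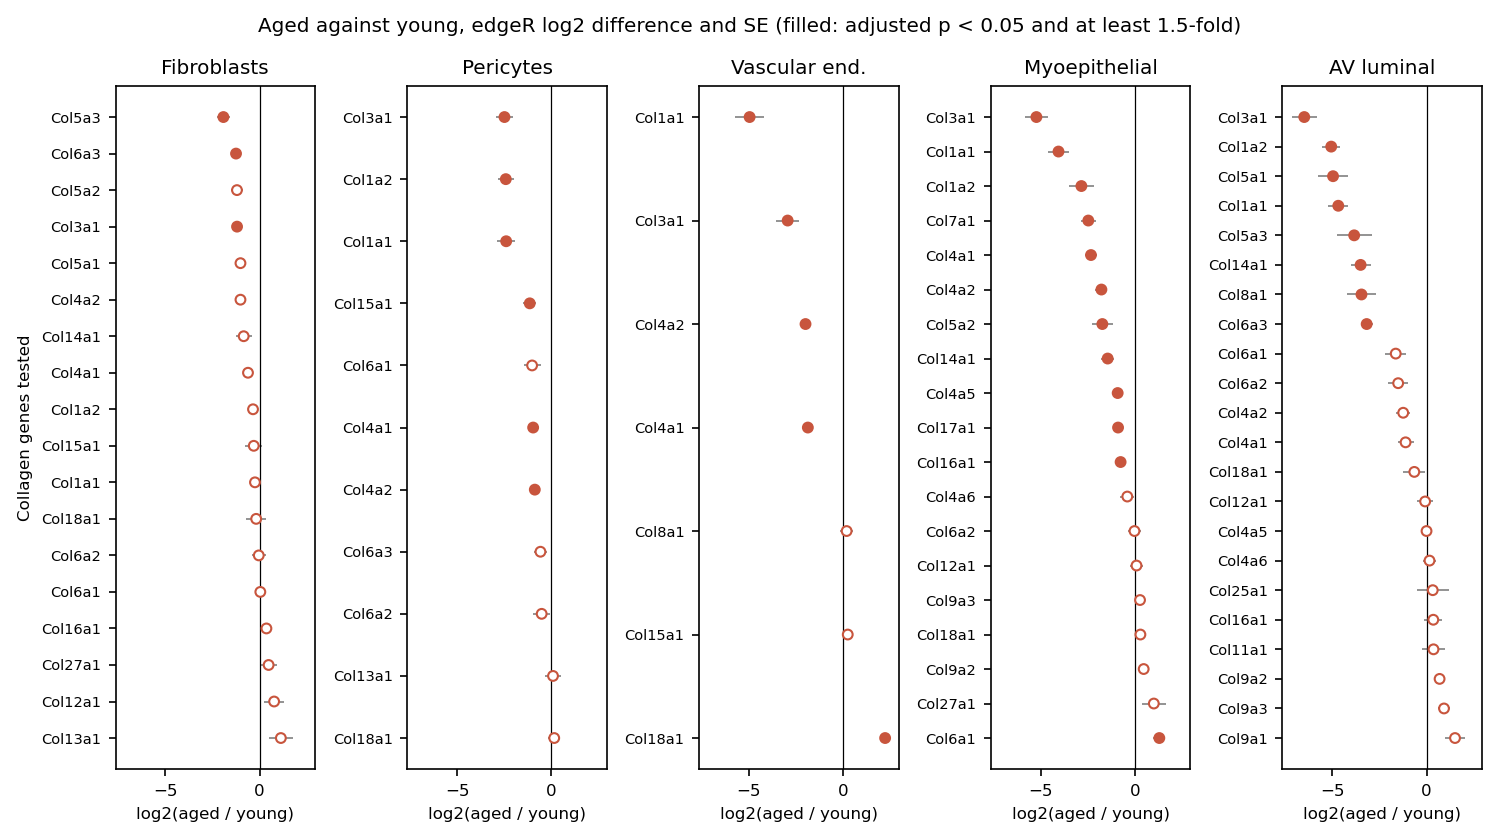
Log2 difference, aged against young, with its SE (edgeR, x axis) for each collagen gene that passed the filter on low counts in 5 cell types, with filled points for genes called. Called genes lie to the left of 0 except for Col18a1 in vascular endothelial cells and Col6a1 in myoepithelial cells.

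Whether an age difference itself differed between types was tested in a joint fit with the mouse as a block. Between myoepithelial and vascular endothelial cells, 4 of 21 collagen genes tested differed, where 15.2% of 8531 genes did. Col6a1 (−3.56 ± 0.58, edgeR adjusted p = 0.000124) and Col6a2 (−3.13 ± 0.64, edgeR adjusted p = 0.00142) had lower age differences in the endothelial cells, where they were at 0.635 to 26.1 CPM. Neither passed the filter on low counts in endothelial cells alone. There Col6a1 had 62 UMIs in young and 13 in aged mice, and Col6a2 had 52 and 6. The part of fibroblast RNA in these values was not tested. Col18a1 (1.81 ± 0.33, edgeR adjusted p = 0.000404) and Col15a1 (2.44 ± 0.66, edgeR adjusted p = 0.012) had higher age differences in the endothelial cells. The call of Col15a1 was lost without Young A. In myoepithelial cells Col15a1 had 15 UMIs in young and 10 in aged mice and did not pass the filter on low counts. In endothelial cells alone its log2 difference was 0.25 ± 0.30 and was not called. Col4a1 (0.39 ± 0.28) and Col4a2 (−0.24 ± 0.28) did not pass in this pair. Between myoepithelial cells and pericytes, 3 of 19 differed, where 10.0% of 4858 genes did: the age difference of Col4a1 was smaller in size in pericytes by 1.29 ± 0.37, that of Col3a1 by 2.55 ± 0.79, and that of Col6a1 was lower in pericytes (−2.38 ± 0.56). With a mouse left out, Col4a1 kept this call in 3 of 7 fits, Col3a1 in 2 and Col6a1 in 7.

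Between vascular endothelial cells and pericytes, 3 of 15 differed, where 9.60% of 7207 genes did. Col18a1 (−2.04 ± 0.38, edgeR adjusted p = 0.000623) and Col15a1 (−1.44 ± 0.43, edgeR adjusted p = 0.0316) had lower age differences in pericytes, and Col4a2 a higher one (0.99 ± 0.31, edgeR adjusted p = 0.0368), that is, a smaller fall. Col15a1 and Col4a2 kept these calls in 3 of 7 fits with a mouse left out, and Col18a1 in 7. Between fibroblasts and pericytes 1 of 16 differed, Col1a2 (−1.96 ± 0.43, edgeR adjusted p = 0.0455), where 0.928% of 3555 genes did. That call was lost in all 7 fits with a mouse left out.

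Genes that process collagen were counted in the same fits, from a list of 34 for biosynthesis and crosslinking and a list of 10 receptors. In myoepithelial cells, 10 of 21 biosynthesis genes tested were lower and 1 was higher, where 27.6% of all genes tested were called. The median log2 difference of these 21 genes was −0.60, against 0.01 over all genes. Serpinh1, the collagen chaperone of the endoplasmic reticulum, was at 430, 295 and 312 CPM in young and 152, 162, 146 and 96.4 CPM in aged cells (−1.24 ± 0.21, edgeR adjusted p = 0.000439). Sparc was at 1518, 1401 and 1422 CPM against 733, 754, 637 and 411 CPM (−1.10 ± 0.20, edgeR adjusted p = 0.00085). Both were lower in every aged mouse. Pcolce, which enhances removal of the procollagen C-propeptide (−1.71 ± 0.42), and Crtap, a subunit of the prolyl 3-hydroxylation complex (−1.46 ± 0.37), fell most, and the integrin subunit Itgb1 was the 1 receptor of 2 tested that was called (0.64 ± 0.20).

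In vascular endothelial cells, 6 of 21 biosynthesis genes were lower and 2 higher, where 26.7% of all genes tested were called. Pcolce (−1.98 ± 0.34), Sparc (−1.68 ± 0.15) and Pxdn (−1.26 ± 0.18), the peroxidasin that crosslinks type IV collagen, were lower, and the prolyl 3-hydroxylase P3h2 (1.88 ± 0.28) was higher. The receptor subunit Itga1 was lower there (−1.75 ± 0.36), the 1 receptor of 2 tested. In AV cells 6 of 25 biosynthesis genes were lower, where 6.16% of all genes were called, led by Pcolce2 (−4.40 ± 0.66) and Loxl1 (−4.03 ± 0.63). In pericytes 1 of 5 was lower (Sparc, −0.90 ± 0.20), where 11.8% of all genes were called. In HS cells 1 of 17 was lower (Sparc, −1.77 ± 0.40) and 1 higher (Pcolce, 1.48 ± 0.29), where 6.26% of all genes were called. The fibroblast marker sums of AV, myoepithelial and vascular endothelial cells and of pericytes, given above, had lower means in aged mice as well, and their part in these partner calls was not tested. Sparc was called lower in 5 of the 6 types. In fibroblasts it missed the threshold with a log2 difference of −0.98 ± 0.26, no smaller in size than that of pericytes. No test of Sparc between types is given here.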

How the data were processed

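Dissociated mammary cells of 3 young and 4 aged mice were sequenced with 10x Chromium 3′ v2 chemistry. Per the labels, the submitters' processing notes name Cell Ranger 2.0 and mm10. The deposited matrix holds raw UMI counts per gene and cell, filtered by the authors, and the deposited cell table gives each cell's mouse, cell type, UMI and gene counts and the fraction of mitochondrial counts. Cell types were taken as deposited. The listed UMI count differed from the matrix sum in 2263 cells, all of aged mice. Scrublet marked 73 doublets (0.533%), which were kept.

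UMIs were summed per mouse and cell type (mice with at least 3 cells) and tested with edgeR 4.0.16 (R 4.3.3) by the quasi-likelihood test, with TMM scaling, filterByExpr and Benjamini-Hochberg adjustment over all genes tested. A gene was called at adjusted p under 0.05 and at least 1.5-fold. Positive differences are higher in aged mice. Overlap between the ages was read from the same values as the calls, and its share over all genes was not counted. Levels are CPM without TMM. Differences of the age change between types were fitted jointly with the mouse as a block. Cells held 2714 to 17158 UMIs. The fits were tested on simulated data. Nothing says that letters pair mice. Collagen members and gene lists were chosen with earlier results of these data known. Genes named were members with a mean of at least 50 CPM in a type, members called or taken up by the study, up to 4 called partner genes per comparison, and, beyond that rule and after their values were seen, low-level chains that share a trimer or complete a cell type's set. Alternatives were other scalings, DESeq2 1.42.0, no low-count filter, other cell and gene filters, thinning, a replicate block and leaving out each mouse. Promoters came from RefSeq (GRCm38.p6).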

Additional observations from a re-analysis of the deposited data

Results flagged for a closer look

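One aged mouse stood apart from the other 3 in 7 of 62 groups of aged values tested with Dixon's criterion, which chance alone meets in about 1 of 20 groups. In sums of all cells Aged A was highest for Col1a2 (88.1 CPM), Col1a1 (59.7 CPM) and Col4a1 (24.3 CPM), and its fibroblasts supplied the highest share of collagen UMIs (51.5%). Aged D was lowest for Col9a1 in sums of all cells (3.45 CPM), Aged A was lowest for Col15a1 in pericytes (16.8 CPM), and Aged B was the only aged mouse with any Col5a1 in AV cells (0.199 CPM).

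The age difference itself differed between cell types for 11 pairs of gene and types in edgeR's test of the difference. From myoepithelial to vascular endothelial cells it was higher for Col15a1 (2.44) and Col18a1 (1.81) and lower for Col6a2 (−3.13) and Col6a1 (−3.56), on the log2 scale. From myoepithelial cells to pericytes it was higher for Col3a1 (2.55) and Col4a1 (1.29) and lower for Col6a1 (−2.38). From vascular endothelial cells to pericytes it was higher for Col4a2 (0.99) and lower for Col15a1 (−1.44) and Col18a1 (−2.04), and from fibroblasts to pericytes it was lower for Col1a2 (−1.96).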

How the results depend on the processing

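No named log2 difference changed direction. With a mouse left out, 378 of 458 kept their side of the threshold, and under the other alternatives 574 of 608 did. The 608 include fits without the fold minimum, which reused the main fit and were always counted as kept. They also include fits with at least 10 cells per mouse, which dropped no mouse in the types fitted. Agreement in both kinds was fixed in advance. Fits in which a gene failed the low-count filter are not in these counts. Thinning the sums to equal totals left 4 collagen genes called in myoepithelial cells, 3 in vascular endothelial cells, 2 in pericytes, 1 in fibroblasts and 0 in AV cells, and 1 (myoepithelial against endothelial), 0, 0 and 0 in the tests between types. In the same order, 682 of 2439, 1623 of 6112, 154 of 1796, 32 of 1130 and 184 of 4851 of all genes were then called. The tests between types then called 474, 199, 184 and 5 of all genes. Thinning leaves fewer UMIs per sum, and in AV cells 3 collagen genes then passed the filter, none of them among the 8. Without the filter on low counts, 7 collagen genes were called in HS cells, 7 in fibroblasts and 13 in vascular endothelial cells, 1 between myoepithelial cells and pericytes and 2 between fibroblasts and pericytes. In the same order, the counts over all genes were 1215 of 16147, 582 of 16201, 2623 of 15743, then 619 and 83. The count between fibroblasts and pericytes was also 2 with RLE factors, with library totals and without doublets, where 30, 28 and 34 of all genes were called. In fibroblasts 5 were called with library totals, with DESeq2 and without ribosomal and mitochondrial genes, where 198, 243 and 173 of all genes were. With only mice of at least 20 fibroblasts, chosen after seeing the data, 1 was, where 114 of all genes were. AV cells had 5 without ribosomal and mitochondrial genes, where 557 of all genes were called. Causes were not tested. Without Col1a1, Col1a2 and Col3a1, fibroblasts supplied 64.8% of the collagen UMIs of young mice. Library totals moved the median log2 difference of all genes to between −0.41 (vascular endothelial cells) and −0.10 (myoepithelial and HS cells).

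With each mouse left out, calls ranged from 5 (without Young A) to 13 in myoepithelial cells, 0 to 3 (without Young B) in HS cells, 4 to 8 (without Young B) in vascular endothelial cells, 0 (without Aged A) to 4 in fibroblasts, 4 (without Young A) to 9 in AV cells, 2 (without Young A) to 5 in pericytes and 21 to 23 in all cells. Between types they ranged from 3 to 6, 1 to 4, 1 to 3 and 0 to 1, in the order of the report. The share of all genes called in each of these fits is not given here. The fibroblast share ranged from 76.9% to 87.5% in young and from 19.9% (without Aged A) to 31.5% in aged mice.

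A replicate block on the mouse letters left 0 collagen genes called in fibroblasts, 3 in pericytes, 10 in myoepithelial cells, 6 in AV cells, 5 in vascular endothelial cells and 22 in all cells. Of all genes, 30 of 5513 were then called in fibroblasts and 184 of 2601 in pericytes. The counts over all genes in the other types are not given here. Deviations of same-lettered mice had correlations between −0.174 and 0.0666, and 1 of 21 was best with its own letter. The 21 come from 7 fits that share the same mice and cannot exclude handling shared by letter. No pairing by letter was assumed in the main fits.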
